A study of Homo sapiens with 6 samples.

Results

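The DNA replication and S phase genes examined here are 43 genes picked by name from the 25528 gene symbols measured by RNA-seq in DU-145/tet-XISTshRNA cells. DU-145 is an established castration-resistant prostate cancer line, and all 6 samples carry a tet-inducible shRNA against the long noncoding RNA XIST and were kept under drug selection for the vector. The vehicle samples (n = 3) received 0.1% DMSO and the DOX samples (n = 3) received 500 ng/ml doxycycline, both for 7 days. The comparison asks how DOX induction of the XIST shRNA went along with the RNA levels of the replication machinery. No sample had DOX without the XIST shRNA, so an effect of DOX itself and an effect of the shRNA cannot be told apart. The labels name triplicate cultures, and the methods describe the replicates of the study's experiments in general as independent and biological. How these cultures were separated is not given there, so p-values measure the spread between these samples.

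Cells prepare for S phase by loading the MCM2 to MCM7 helicase onto origins, a step called licensing that needs the origin recognition complex (ORC), CDC6 and CDT1 and that geminin (GMNN) blocks by binding CDT1. Licensed helicases are switched on by CDC45 and the GINS complex, and DNA is then copied by polymerases alpha, delta and epsilon with the sliding clamp PCNA, its loader RFC and the single-strand binding protein RPA. Many of these genes are targets of the E2F transcription factors, which RB restrains, and DU-145 cells lack a functional RB protein.

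XIST, the target of the shRNA, had 0 TPM in each of the 6 samples, so its silencing could not be checked in these values. The paper measured XIST RNA separately in this line with vehicle or DOX and describes it as silenced. Reads counted on genes, recovered from TPM, ranged from 5453500 in vehicle replicate 3 to 64571871 in DOX replicate 1, and every replication gene had between 57 and 24549 reads in each sample. A few abundant small RNAs (the 7SL genes, RN7SK and RPPH1) held 67.5% to 82.6% of the TPM of a sample. Levels are therefore given as scaled TPM, which is TPM divided by a median-of-ratios factor per sample, and TPM as deposited is given beside them. TPM is per transcript length, so genes can be compared with each other on either scale. All 6 epithelial markers were expressed, with a summed level of 218 to 362 TPM in the vehicle samples and 262 to 288 TPM in the DOX samples. Of 6 androgen receptor and luminal prostate markers, only 1 reached a mean of 1, and 3 had no TPM above 0 in any sample. Their summed level was 8.83 to 12.4 TPM in the vehicle samples and 6.27 to 9.19 TPM in the DOX samples. No gene of the fibroblast (0 of 6), endothelial (0 of 4) or immune (0 of 5) marker lists reached a mean of 1, and the fibroblast markers DCN, LUM and COL1A2 were listed at 0.

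All 43 replication genes passed the minimum of a mean scaled TPM of 1 and were tested among 11630 genes. By limma on log2(scaled TPM + 1), 0 of the 43 were called higher and 0 lower in the DOX samples, with a background of 0.0% of all genes tested in either direction. A call required a difference of more than 1.5-fold and a p-value that stayed below 0.05 after Benjamini-Hochberg adjustment over all genes tested. By the nominal rule, which takes the p-value before adjustment and keeps the 1.5-fold limit, 1 of the 43 (CDT1) was higher, with a background of 1.19%, and 0 were lower, with a background of 1.14%. By limma voom on the recovered reads, the count was 0 in both directions without a block, with a background of 0.0% higher and 0.0086% lower. When voom had the replicate block it was 2 higher (CDT1 and TK1) and 0 lower, with a background of 1.46% higher and 2.16% lower. With that block and a correction for GC content and length it returned to 0 higher and 0 lower, with a background of 0.0185% and 0.0555%.

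The differences were small and mostly of 1 sign on the scaled values. Of the 43 genes, 38 had a log2 fold change above 0, with a background of 52.9%, and they ranged from -0.31 (RFC1) to 0.65 (CDT1) with a median of 0.17, against 0.02 for all genes tested. The sign turned on TPM as deposited, with 40 of the 43 below 0, a background of 93.1%, and a median of -0.24, against -0.35 for all genes. On both scales most of the 43 lay above the median of all genes, 37 on scaled TPM and 36 on TPM as deposited. All 3 DOX samples lay above all 3 vehicle samples in scaled TPM for 8 genes (CDT1, MCM4, MCM5, MCM7, RFC5, RPA1, UHRF1 and TYMS), with a background of 10.9%. For 0 genes did they all lie below, with a background of 9.13%. With TPM as deposited the counts were 0 above, with a background of 0.223%, and 3 below (GINS3, RFC1 and RPA3), with a background of 30.7%. Limma on that scale called 0 of the 43 higher and 0 lower, with a background of 0.0257% and 2.98%, and by the nominal rule 1 (RFC1) was lower, with a background of 19.0%. In bulk RNA a change in the share of cells in S phase and a change in the RNA of each cell cannot be told apart.

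**Figure D1:**
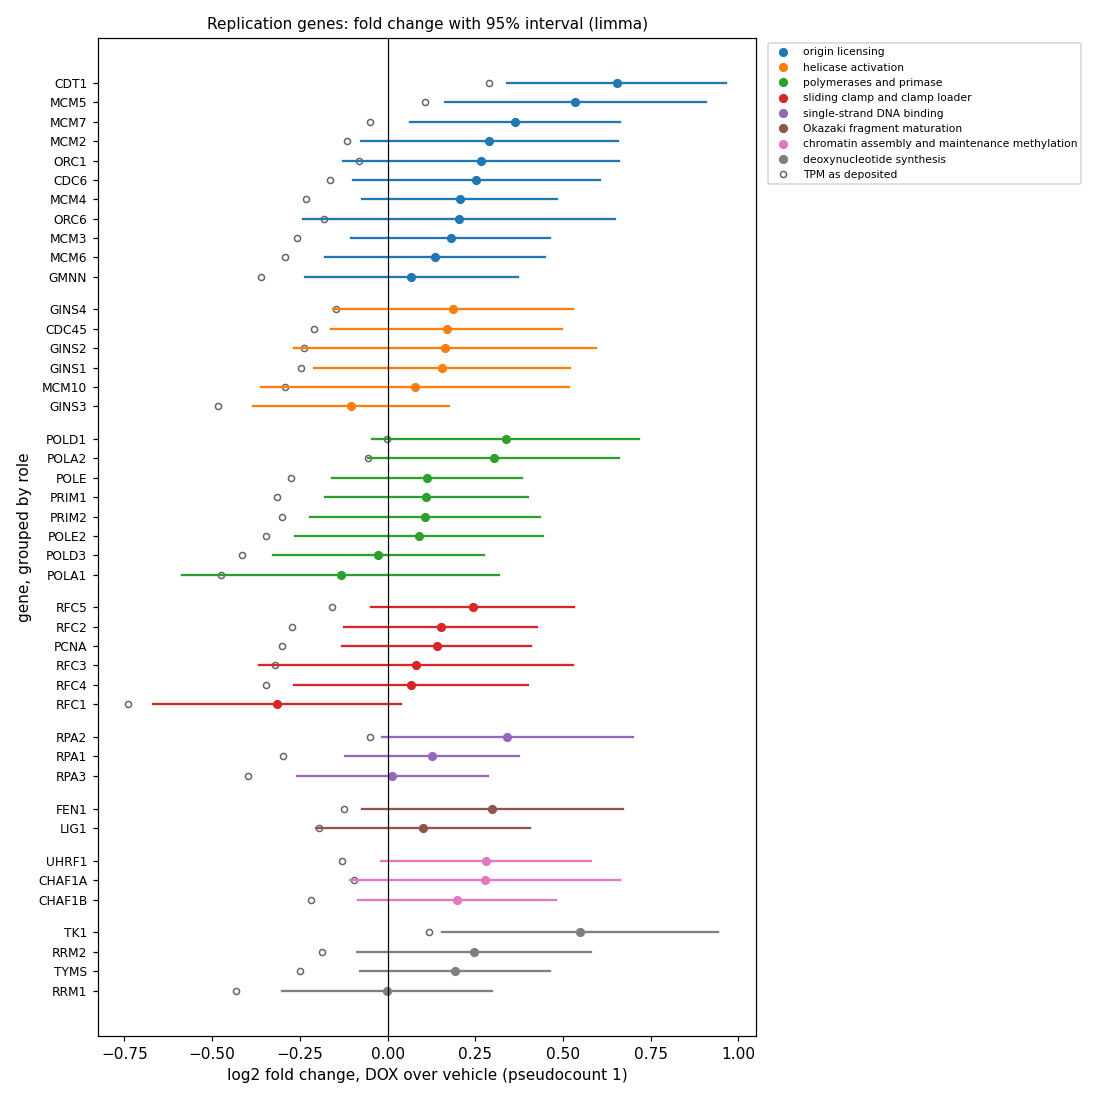
log2 fold change of DOX over vehicle (x axis, log2 scale with a pseudocount of 1) for the 43 replication genes (y axis, grouped by role). Filled points and bars are the limma estimate and its 95% interval on scaled TPM, and open points are the estimate on TPM as deposited. The filled points run from -0.31 to 0.65 with 38 of 43 above 0, while 40 of 43 open points lie below 0.

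Promoters of 4 of these genes are shown to give the sequences around the E2F and CCAAT motifs that mark many S phase genes, for the gene with the highest fold change (CDT1), a helicase subunit (MCM6), the sliding clamp (PCNA) and the gene with the lowest fold change (RFC1). Each line is the 200 bases before the RefSeq start on GRCh38.p14, read 5′ to 3′ on the gene's strand, with matches to an E2F or CCAAT motif in capitals. The locations are chr16:88803589-88803788 (plus strand) for CDT1, chr2:135876444-135876643 (minus strand) for MCM6, chr20:5126623-5126822 (minus strand) for PCNA and chr4:39366363-39366562 (minus strand) for RFC1.
CDT1: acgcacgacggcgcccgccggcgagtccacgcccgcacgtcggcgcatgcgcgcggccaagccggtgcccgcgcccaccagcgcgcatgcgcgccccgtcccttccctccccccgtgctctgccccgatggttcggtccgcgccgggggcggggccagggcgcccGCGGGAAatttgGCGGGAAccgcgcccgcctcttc
MCM6: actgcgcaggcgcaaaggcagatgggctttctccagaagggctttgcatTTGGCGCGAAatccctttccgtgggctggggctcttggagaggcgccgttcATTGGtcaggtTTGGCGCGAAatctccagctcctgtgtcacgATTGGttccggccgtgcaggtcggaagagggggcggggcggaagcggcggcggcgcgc
PCNA: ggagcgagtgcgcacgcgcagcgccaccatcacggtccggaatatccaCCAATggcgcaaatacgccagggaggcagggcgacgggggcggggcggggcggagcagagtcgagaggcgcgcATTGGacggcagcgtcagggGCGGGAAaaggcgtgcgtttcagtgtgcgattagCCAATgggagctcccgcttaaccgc
RFC1: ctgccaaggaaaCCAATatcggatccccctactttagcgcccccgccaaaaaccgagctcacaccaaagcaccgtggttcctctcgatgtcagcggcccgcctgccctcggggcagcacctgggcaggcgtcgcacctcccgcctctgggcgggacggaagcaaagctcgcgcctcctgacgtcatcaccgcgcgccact

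The CDT1 window held 2 E2F matches and no CCAAT box, and the MCM6 window held 4 E2F matches, in 2 pairs that share bases, and 2 CCAAT boxes. PCNA had 1 E2F match and 3 CCAAT boxes, and RFC1 had 1 CCAAT box and no E2F match. The E2F letters searched were TTCCCGC or TTGGCGC or TTCGCGC or TTGCCGC on either strand, in the 250 bases before the start, where 37 of the 43 genes had a RefSeq window. An E2F match was found in 22 of the 37 (59.5%), against 22.1% of 8852 genes tested with such a window and 13.0% of all 27305 genes with one. A CCAAT box (CCAAT) was present in 23 of 37 (62.2%), against 41.7% and 37.0%. A GC box (GGGCGG), which can share bases with an E2F match, was present in 27 of 37 (73.0%), against 75.8% and 46.2%. The cell cycle homology region of G2/M genes (TTTGAA or TTCGAA) was present in 2 of 37 (5.41%), against 13.1% and 17.2%. The median log2 fold change on scaled TPM was 0.15 for the 22 genes with an E2F match and 0.17 for the 15 without.

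The licensing group of 11 genes counts GMNN, the inhibitor of the step, with the genes that carry it out. All 11 had a log2 fold change above 0 on scaled TPM, with a background of 52.9% and a median of 0.25. All DOX samples lay above all vehicle samples for 4 of them, with a background of 10.9%. With TPM as deposited only CDT1 and MCM5 of the 11 stayed above 0. CDT1, which brings the helicase to the origin, lies at chr16:88803789-88809258 (plus strand, GENCODE 44 on GRCh38). Its scaled TPM, in the order of replicates 1 to 3 as for every gene here, was 3.65, 2.98 and 3.24 in the vehicle samples and 6.54, 5.90 and 4.86 in the DOX samples. Every DOX sample was above every vehicle sample, with means of 3.29 ± 0.336 and 5.77 ± 0.851 (SD, n = 3). The log2 fold change was 0.65 ± 0.14 (SE) with an adjusted p-value of 0.269 by limma, and it was 0.29 on TPM as deposited. By voom with the replicate block it was 0.85 ± 0.15 with an adjusted p-value of 0.0121, which became 0.156 with the correction for GC content and length in the same fit. Over 15 alternatives the adjusted p-value of CDT1 ran from 0.0121 to 0.727.

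GMNN, the inhibitor of CDT1, was at 22.5, 25.7 and 23.7 in the vehicle samples and 21.2, 27.1 and 27.6 in the DOX samples, and these overlapped (log2 fold change 0.07 ± 0.14, or -0.36 on TPM as deposited). The ratio of CDT1 to GMNN within a sample does not depend on the scaling between samples, but it was not corrected for GC content. It was 0.162, 0.116 and 0.137 in the vehicle samples and 0.309, 0.218 and 0.176 in the DOX samples, so all DOX samples were above all vehicle samples. This and the other ratios given here were chosen after the values were seen and are descriptions without a test. None of them was corrected for GC content, with which the fold changes moved, as given below. Of 6 ratios between a pair of genes that were computed, the groups overlapped for 3 (TK1 to TYMS, MCM5 to MCM6 and POLA2 to POLA1), 2 were higher (CDT1 to GMNN and RRM2 to RRM1) and 1 was lower (RFC1 to PCNA) in all DOX samples.

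Among the helicase subunits, MCM5 and MCM7 had the larger differences. MCM5 (chr22:35400134-35425431, plus strand) had a scaled TPM of 23.2, 18.7 and 18.7 in the vehicle samples and 36.3, 30.1 and 23.7 in the DOX samples. The groups were apart by a narrow gap between vehicle replicate 1 and DOX replicate 3. The log2 fold change was 0.54 ± 0.17, with an adjusted p-value of 0.281 by limma, and 0.11 on TPM as deposited. With voom and the replicate block it was 0.58 with an adjusted p-value of 0.0131, short of the fold change of 1.5. The correction for GC content and length in the same fit brought it to 0.39, with an adjusted p-value of 0.124. MCM7 (chr7:100092233-100101940, minus strand) had 12.7, 10.5 and 11.1 in the vehicle samples and 16.4, 15.6 and 13.1 in the DOX samples, again without overlap. Its log2 fold change was 0.36 ± 0.13 with an adjusted p-value of 0.282 by limma, but -0.05 on TPM as deposited. The exons of MCM7 overlap those of AP4M1 on the opposite strand by 392 bases, and the strand setting of the counting is not given in the sources used here.

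MCM4, the helicase subunit with the highest level, had a scaled TPM of 47.8, 48.4 and 51.4 in the vehicle samples and 52.4, 64.6 and 54.4 in the DOX samples. These did not overlap, but the log2 fold change was only 0.21 ± 0.12, and -0.23 on TPM as deposited. MCM2, MCM3 and MCM6 had log2 fold changes of 0.29, 0.18 and 0.13 with overlapping groups, all below 0 on TPM as deposited. As a share of the summed MCM2 to MCM7 level, MCM5 was 13.1% ± 1.21 in the vehicle and 16.1% ± 2.76 in the DOX samples and MCM7 was 7.39% ± 0.496 and 8.07% ± 0.578 (SD, n = 3). The shares of all 6 subunits overlapped between the groups. ORC1, ORC6 and CDC6, which build the platform for the helicase, had log2 fold changes of 0.27, 0.20 and 0.25 with overlapping groups, and each was highest in DOX replicate 2.

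**Figure D2:**
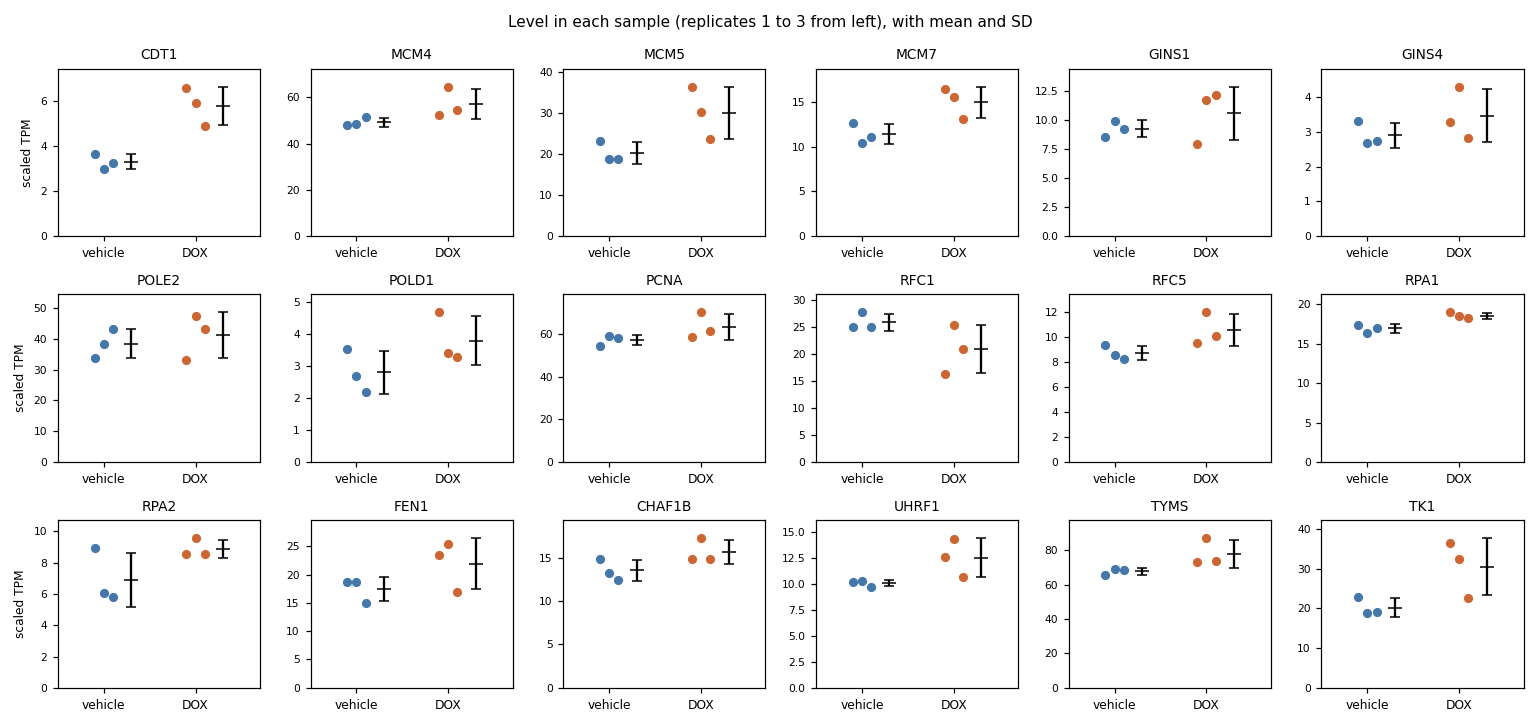
Scaled TPM (y axis, linear from 0) of 18 replication genes in the 3 vehicle and 3 DOX samples (points, replicates 1 to 3 from left), with the mean and SD beside each group. The DOX points are all above the vehicle points for CDT1, MCM4, MCM5, MCM7, RFC5, RPA1, UHRF1 and TYMS, whereas on TPM as deposited 0 of the 43 genes had this pattern.

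The genes that switch on the helicase differed less than the licensing group on scaled TPM. Of 6, 5 had a log2 fold change above 0 on scaled TPM, with a background of 52.9% and a median of 0.16. The groups overlapped for all 6, where the background of groups apart was 10.9% above and 9.13% below. All 6 were below 0 on TPM as deposited. With GC content and length corrected, their median was 0.13 by limma, against 0.18 for the licensing group. By voom with the replicate block and that correction it was 0.23, against 0.24. GINS4, a GINS subunit and the gene with the largest change in this role, had 3.31, 2.67 and 2.73 in the vehicle samples and 3.28, 4.31 and 2.83 in the DOX samples. Only DOX replicate 2 stood above the vehicle range, and the log2 fold change was 0.19 ± 0.15 (adjusted p-value 0.533 by limma). GINS1, the GINS subunit with the highest level, had 8.56, 9.98 and 9.28 in the vehicle samples and 7.91, 11.7 and 12.1 in the DOX samples, with DOX replicate 1 the lowest of all 6. Its log2 fold change was 0.15 ± 0.16. GINS3 was at -0.10, and CDC45, GINS2 and MCM10 were at 0.17, 0.16 and 0.08.

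The polymerase and primase genes had a median log2 fold change of 0.11 on scaled TPM, with 6 of 8 above 0 and a background of 52.9%. The groups overlapped for all 8, where the background of groups apart was 10.9% above and 9.13% below. POLE2, an accessory subunit of the leading-strand polymerase epsilon and the gene with the highest level here, had 33.8, 38.4 and 43.2 in the vehicle samples and 33.1, 47.5 and 43.2 in the DOX samples. The groups covered nearly the same range, with a log2 fold change of 0.09 ± 0.16 that was -0.01 without DOX replicate 2 and -0.35 on TPM as deposited. POLD1, the catalytic subunit of polymerase delta, had 3.53, 2.68 and 2.18 in the vehicle samples and 4.67, 3.41 and 3.27 in the DOX samples. Vehicle replicate 1 lay within the DOX range, and the log2 fold change was 0.34 ± 0.17 (adjusted p-value 0.345 by limma) and -0.0024 on TPM as deposited. POLA1 and POLA2, the catalytic and the accessory subunit of polymerase alpha, were on opposite sides of 0, at -0.13 ± 0.20 and 0.30 ± 0.16. Both were below 0 on TPM as deposited, at -0.48 and -0.05. POLD3 was at -0.03, and POLE, PRIM1 and PRIM2 were each at 0.11, and these 4 lay between -0.41 and -0.27 on TPM as deposited.

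RFC1, the large subunit of the clamp loader, had the lowest fold change of the 43 genes. It lies at chr4:39287456-39366375 (minus strand) and had a scaled TPM of 25.0, 27.7 and 25.0 in the vehicle samples and 16.4, 25.4 and 21.0 in the DOX samples. DOX replicates 1 and 3 were below the vehicle range and DOX replicate 2 was within it. The log2 fold change was -0.31 ± 0.16 with an adjusted p-value of 0.342 by limma. On TPM as deposited it was -0.74, with an adjusted p-value of 0.0911, and with the replicate block on that scale RFC1 was the 1 replication gene called lower, with an adjusted p-value of 0.00264 and a background of 19.0%. Its adjusted p-value ran up to 0.737 over 16 alternatives.

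The 4 small RFC subunits were above 0 on scaled TPM and below 0 on TPM as deposited, and RFC5 was the only one of them whose groups did not overlap. RFC5 had 9.40, 8.56 and 8.27 in the vehicle samples and 9.54, 12.0 and 10.1 in the DOX samples, with a log2 fold change of 0.24 ± 0.13 (adjusted p-value 0.364 by limma), or -0.16 on TPM as deposited. Within a sample, RFC1 took 32.2%, 36.3% and 34.6% of the summed level of RFC1 to RFC5 in the vehicle samples and 24.4%, 28.3% and 29.7% in the DOX samples. All DOX shares were below all vehicle shares. RFC5 took 12.1%, 11.2% and 11.5% in the vehicle samples and 14.2%, 13.4% and 14.3% in the DOX samples, all above. PCNA, the sliding clamp, was among the most abundant of the 43 genes, with 54.7, 59.1 and 58.3 in the vehicle samples and 58.6, 70.4 and 61.5 in the DOX samples. These ranges overlapped, with a log2 fold change of 0.14 ± 0.12, or -0.30 on TPM as deposited.

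**Figure D3:**
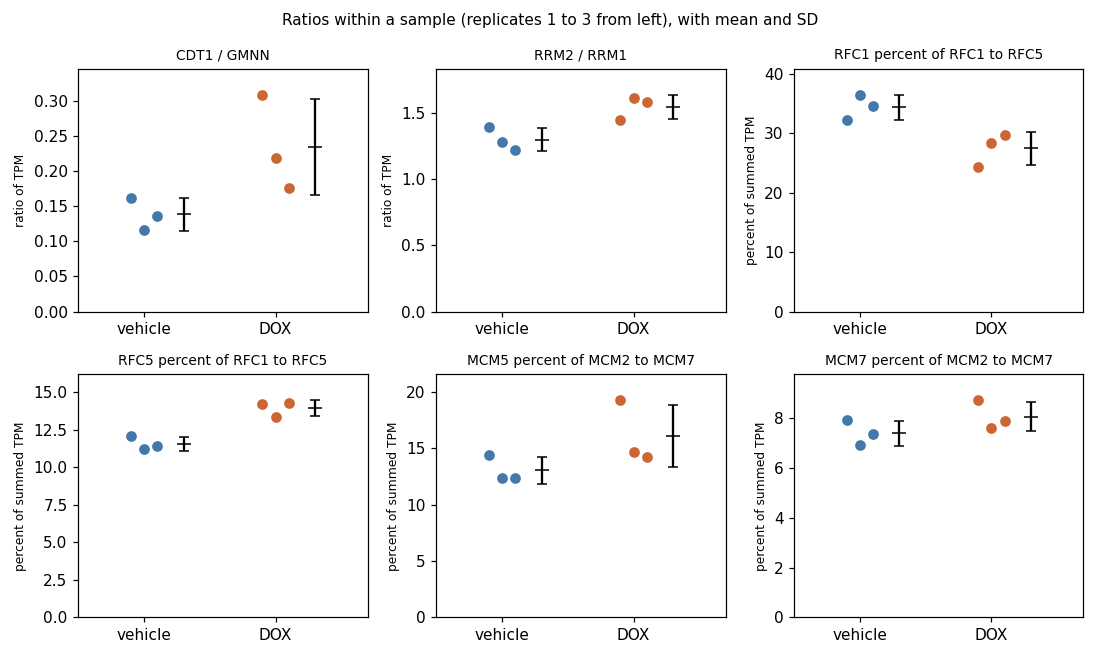
Ratios of TPM within each sample (y axes, linear from 0), which do not depend on the scaling between samples, for the 3 vehicle and 3 DOX samples (points, replicates 1 to 3 from left) with the mean and SD. The ratios were not corrected for GC content. CDT1 over GMNN, RRM2 over RRM1 and the RFC5 share are higher in all DOX samples, the RFC1 share is lower in all DOX samples, and the MCM5 and MCM7 shares overlap.

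RPA1, the large subunit of the single-strand binding protein, had the tightest values of the genes shown, with 17.4, 16.4 and 17.0 in the vehicle samples and 19.0, 18.5 and 18.2 in the DOX samples. The groups did not overlap, and the log2 fold change was 0.13 ± 0.11, or -0.30 on TPM as deposited. RPA2 had 8.91, 6.06 and 5.79 in the vehicle samples and 8.55, 9.56 and 8.57 in the DOX samples, where vehicle replicate 1 lay within the DOX range. Its log2 fold change was 0.34 ± 0.16, or -0.05 on TPM as deposited, and RPA3 was at 0.01, or -0.40 on TPM as deposited. FEN1, the nuclease that trims Okazaki fragments, had 18.7, 18.7 and 15.0 in the vehicle samples and 23.5, 25.4 and 16.9 in the DOX samples. DOX replicate 3 lay within the vehicle range, with a log2 fold change of 0.30 ± 0.17, or -0.13 on TPM as deposited. LIG1, which seals the fragments, was at 0.10, or -0.20 on TPM as deposited.

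UHRF1, which guides maintenance DNA methylation to newly copied DNA, had 10.2, 10.3 and 9.74 in the vehicle samples and 12.6, 14.4 and 10.6 in the DOX samples. The DOX samples were all higher, and the log2 fold change was 0.28 ± 0.13 (adjusted p-value 0.328 by limma), or -0.13 on TPM as deposited. CHAF1B, a subunit of the histone chaperone CAF-1, had 14.9, 13.3 and 12.5 in the vehicle samples and 14.8, 17.2 and 14.9 in the DOX samples. The groups overlapped, with a log2 fold change of 0.20 ± 0.13, or -0.22 on TPM as deposited. CHAF1A was at 0.28 with overlapping groups, or -0.10 on TPM as deposited.

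Of the 4 genes that supply deoxynucleotides, TK1, the thymidine salvage kinase, had the largest difference. TK1 lies at chr17:78174091-78187233 (minus strand) and had 22.8, 18.8 and 19.0 in the vehicle samples and 36.5, 32.3 and 22.6 in the DOX samples. DOX replicate 3 fell just below vehicle replicate 1, which left a small overlap. Its log2 fold change was 0.55 ± 0.18 with an adjusted p-value of 0.281 by limma, and 0.12 on TPM as deposited. By voom with the replicate block it was 0.63 ± 0.12 with an adjusted p-value of 0.0147, which became 0.33 with the correction for GC content and length. Its adjusted p-value ran from 0.0147 to 0.75 over 16 alternatives.

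TYMS, which makes thymidylate and had the highest level of the 43 genes, had 65.6, 69.1 and 68.7 in the vehicle samples and 73.0, 87.0 and 73.5 in the DOX samples. These did not overlap, and the log2 fold change was 0.19 ± 0.12, or -0.25 on TPM as deposited. Its exons overlap those of ENOSF1 on the opposite strand by 967 bases. RRM1 and RRM2, the large and small subunits of ribonucleotide reductase, were at -0.0013 ± 0.13 and 0.25 ± 0.15 on scaled TPM, and at -0.43 and -0.19 on TPM as deposited. The ratio of RRM2 to RRM1 was 1.39, 1.28 and 1.22 in the vehicle samples and 1.45, 1.62 and 1.59 in the DOX samples, with all DOX samples above. In all, 21 of the 43 genes have exons that overlap those of another annotated gene, so their reads could be split or shared.

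The 43 genes deviated together in some samples. In scaled TPM, DOX replicate 2 was the highest of the 6 samples for 29 of the 43 genes, DOX replicate 1 for 9, DOX replicate 3 for 3 and vehicle replicate 2 for 2. Of all genes tested, 16.1% were highest in DOX replicate 2 and 30.8% in DOX replicate 1. DOX replicate 2 was also the highest sample for 24 of 40 other replication genes, 10 of 28 regulators of E2F and S phase entry and 19 of 20 mitosis and G2/M genes. DOX replicate 1 was also the lowest sample for 9 genes. The pattern depended on the scale. On TPM as deposited, vehicle replicate 3 was the highest sample for 24 of the 43 genes, DOX replicate 2 for 18 and vehicle replicate 1 for 1. DOX replicate 1 was the lowest for 35 on that scale, and the shares of all genes were not computed there. In scaled TPM again, the median deviation of the 43 genes from their means was 0.27 (log2) in DOX replicate 2. It was 0.03 in DOX replicate 1 and -0.04 in DOX replicate 3, and it lay between -0.11 and -0.05 in the vehicle samples. Without DOX replicate 2, the median log2 fold change fell from 0.17 to 0.10 and the genes below 0 went from 5 to 11. CDT1 ranged from 0.58 to 0.76 when each sample was left out in turn. The number of genes passing the nominal rule went from 1 to 3 without vehicle replicate 1 (background 3.48%) or without DOX replicate 3 (background 2.5%) and to 0 without DOX replicate 1 (background 0.68%).

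**Figure D4:**
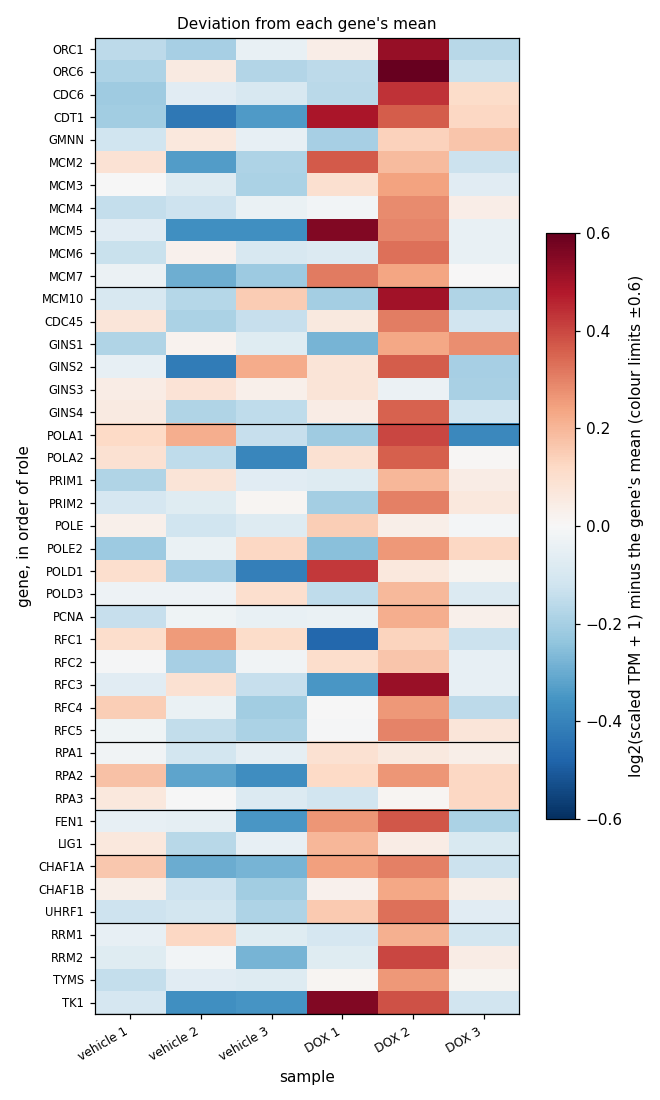
Deviation of log2(scaled TPM + 1) from each gene's mean over the 6 samples (colour, limited to ±0.6) for the 43 replication genes (rows, in order of role with lines between roles) in each sample (columns). DOX replicate 2 is the highest sample for 29 of the 43 genes, and CDT1, MCM5 and TK1 are highest in DOX replicate 1. On TPM as deposited, which is not drawn, vehicle replicate 3 is the highest for 24 of the 43.

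The fold changes moved with the GC content of the transcripts. Across the 43 genes, which share the same 6 libraries, the log2 fold change on scaled TPM correlated with GC content with a Pearson r of 0.72 and a Spearman rho of 0.73 (n = 43). Across all 10818 genes tested with a known GC content, r was 0.65 and rho 0.68. CDT1 (64.3% GC), POLD1 (63.9%) and TK1 (62.8%) were the most GC-rich of the genes shown, and RFC1 was at 41.7%. The 10 genes at 54% GC or more had a median log2 fold change of 0.31, against 0.22 for all genes in that range. The 4 genes below 42% had -0.03, against -0.19. Between these, the medians were 0.09, 0.19 and 0.19 in bins starting at 42%, 45% and 48% (11, 9 and 9 genes), against -0.07, -0.0012 and 0.10 for all genes. The median of the replication genes was thus the higher in each of the 5 bins.

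With GC content and length corrected, r fell to 0.13 across the 43 genes and their median log2 fold change was 0.12, with 38 of 43 above 0 and a background of 54.8%. On the corrected values all DOX samples lay above all vehicle samples for 10 genes, with a background of 11.0%, and all lay below for 0, with a background of 8.45%. The correction lowered CDT1 from 0.65 to 0.37, MCM5 from 0.54 to 0.38 and TK1 from 0.55 to 0.25, and it moved RFC1 from -0.31 to -0.18. MCM7 went from 0.36 to 0.17, POLD1 from 0.34 to 0.087, FEN1 from 0.30 to 0.15, UHRF1 from 0.28 to 0.15 and TYMS from 0.19 to 0.082. By voom with the replicate block, the adjusted p-value of MCM7 went from 0.0333 to 0.488 with the correction. GINS1, with a GC content of 39.7%, went from 0.15 to 0.33. By limma 0 genes were called after the correction, and 0 passed the nominal rule, with a background of 0.129% higher and 0.453% lower.

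**Figure D5:**
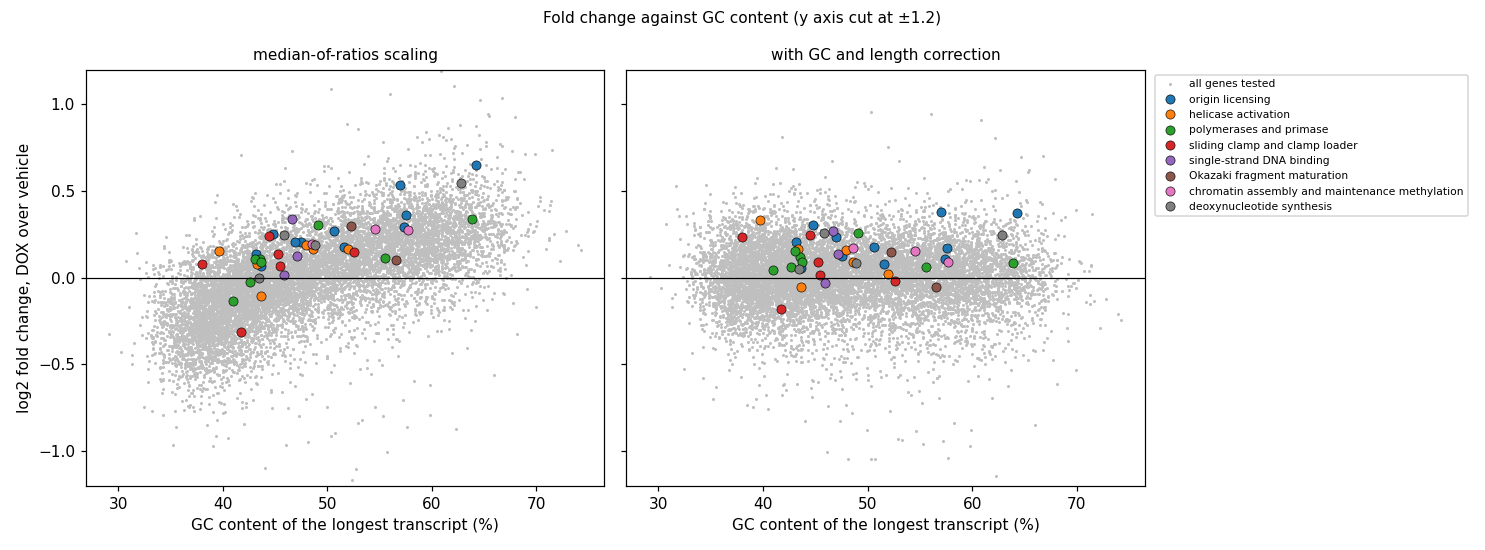
log2 fold change of DOX over vehicle (y axis) against GC content of the longest transcript (x axis, %), on scaled TPM (left) and after correction for GC content and length (right), for all genes tested (grey) and the 43 replication genes (coloured by role). The coloured points climb with GC content on the left (r = 0.72) and much less on the right (r = 0.13), with 38 of 43 above 0 in both panels, whereas on TPM as deposited 40 of 43 were below 0.

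Related replication and cell cycle lists had lower medians than the 43 genes on scaled TPM, but after GC and length correction the mitosis and G2/M list had 0.14 against 0.12 for the 43. Of 40 tested genes among 42 other replication genes, 24 were above 0 with a median of 0.06, and limma called 0. By the nominal rule 1 was higher (DCTPP1, a nucleotide pool cleaner, at 0.63 ± 0.16). POLD2, the next subunit of polymerase delta, was at 0.49 ± 0.17, the polymerase epsilon subunit POLE4 at 0.35 ± 0.14 and the histone chaperone ASF1B at 0.34 ± 0.14. On TPM as deposited 38 of the 40 were below 0, POLD2 and DCTPP1 being the exceptions.

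Among 28 tested regulators of E2F and S phase entry, 16 were above 0 with a median of 0.09, and limma called 0, with 0 by the nominal rule. The repressive E2F family member E2F4 was at 0.37 ± 0.13, the D-type cyclin CCND3 at 0.45 ± 0.17 and the phosphatase CDC25A at 0.33 ± 0.15, while the pocket protein RBL2 was at -0.35 ± 0.13. On TPM as deposited 26 of the 28 were below 0, with E2F4 at -0.06. By voom with the replicate block, CCND3 was called higher (0.63, adjusted p-value 0.0293), with a background of 1.46%, and the correction for GC content and length in the same fit ended the call (0.39, adjusted p-value 0.267). Of 20 mitosis and G2/M genes, 12 were above 0 on scaled TPM with a median of 0.10 (16 were below 0 on TPM as deposited), and limma called 0, with 1 by the nominal rule (CDC20). The 20 genes ran from -0.48 (CENPF) to 0.60 (CDC20), with 8 below 0. Those with the lowest p by limma were all higher. CDC20 was at 0.60 ± 0.15, the kinases AURKB and PLK1 at 0.55 ± 0.15 and 0.50 ± 0.14, and the survivin gene BIRC5 at 0.46 ± 0.11, all 4 of them above 0 on TPM as deposited as well. All DOX samples lay above all vehicle samples in scaled TPM for 7 of the 20, with a background of 10.9%. On TPM as deposited this held for 0 of the 20, with a background of 0.223%. CDC20 and AURKB were called higher by voom with the replicate block, with a background of 1.46%, and neither was with the correction for GC content and length in that fit (adjusted p-values 0.223 and 0.291).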

How the data were processed

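RNA of 3 vehicle and 3 DOX samples was sequenced from stranded mRNA libraries. The labels name RNeasy columns for RNA isolation and the paper's methods name Trizol. The authors aligned reads to GRCh38 with STAR, and TPM per gene symbol, set to a total of 1000000 per sample, was deposited by the authors. The authors also deposited DESeq2 output, of which only the mean normalized count over all samples, a pooled signal, was used. Its fold changes and p-values were not used. Tool versions, the counter and its strand setting are not given in the sources used here.

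TPM was divided by median-of-ratios factors and log2(scaled TPM + 1) was compared by limma 3.58.1 (R 4.3.3, eBayes with trend, no block, two-sided) over 11630 genes with a mean of at least 1. A fold change on this scale understates changes of low genes. p-values were adjusted by Benjamini-Hochberg, with a call at 0.05 and 1.5-fold. Median-of-ratios scaling was chosen because a few small RNAs held most of each TPM total. The authors used it through DESeq2 for their own comparison, on counts and not on TPM. Reads were recovered from TPM and the mean normalized count for voom, and 99.7% of 22732 values of up to 20 reads were whole within 0.1 (20% by chance). GC content and length came from the longest GENCODE 44 transcript and covered 93.0% of the genes tested. Data were simulated for 3 DOX against 3 vehicle samples and 11522 genes. They had the same relative spread for every gene and no effect of GC content or replicate number, unlike the real samples. Limma recovered 178 of 197 genes changed 2-fold with 10 false calls, and voom recovered 190 with 6. These counts hold for the simulated settings only. Every replication gene differed by less than 2-fold on scaled TPM, with log2 fold changes from -0.31 to 0.65. The simulation therefore does not tell how often differences of that size would be called, and it does not explain the absence of calls.

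Groups came from sample titles. Same-numbered vehicle and DOX samples deviated together across genes (r of 0.56, 0.26 and 0.19), which fell to 0.18, 0.04 and 0.15 after GC correction, while no label gives the meaning of a replicate number. The 43 genes and all lists were chosen with earlier results of these data known. Values per sample are given for the most abundant and the most changed gene of each role, genes called by limma or by voom with the replicate block, and genes without overlap. GMNN was added outside these rules, beside its ratio with CDT1. The other lists are given by counts and up to 4 genes with the lowest p. Promoters came from RefSeq (GRCh38.p14). Alternatives were TPM as deposited, a pseudocount of 0.1, no minimum, a minimum of 5, voom, the replicate block, GC and length correction, and leaving out each sample. Analyses used Python 3.11.15, pandas 2.3.3 and matplotlib 3.10.9.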

Additional observations from a re-analysis of the deposited data

How the results depend on the processing

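For the 18 genes given per sample other than GMNN, 285 alternative values were computed. Of these, 253 kept their sign and side of the threshold, 29 changed sign and 3 passed it. TPM as deposited, with or without the replicate block, turned 14 of the 18 below 0, with MCM4 at -0.23, MCM7 at -0.051, GINS1 at -0.25, GINS4 at -0.15, POLE2 at -0.35, POLD1 at -0.0024, PCNA at -0.30, RFC5 at -0.16, RPA1 at -0.30, RPA2 at -0.051, FEN1 at -0.13, CHAF1B at -0.22, UHRF1 at -0.13 and TYMS at -0.25. On that scale the median of the 43 genes was -0.24. The genes with all DOX samples above went from 8 (background 10.9%) to 0 (background 0.223%). Those with all below went from 0 (background 9.13%) to 3 (background 30.7%). The replicate block on that scale made RFC1 the 1 gene of the 43 called lower, with a background of 19.0%. The median of all genes on that scale was -0.35. POLE2 ranged from -0.014 (without DOX replicate 2) to 0.23 (without DOX replicate 1). Genes called higher went from 0 to 2 by voom with the replicate block (CDT1 and TK1), with a background of 1.46%. They went to 1 (CDT1) when p was not adjusted, with a background of 1.19%. Why the block changed these calls was not tested, and it changed no other call on the scaled values. With each sample left out in turn, 0 genes were called in either direction and the median log2 fold change was 0.10 to 0.23.

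Depth limits the low genes, since vehicle replicate 3 had 57 reads for the lowest gene. The 95% interval of the log2 fold change was not adjusted for the number of genes. It lay off 0 for 4 of the 43 genes by limma without the block (CDT1, MCM5, MCM7 and TK1). With GC content and length corrected in that limma fit the count was 6. By voom with the replicate block it was 13, and 8 with the correction in the same fit. The share of all genes tested with such an interval was not computed, so these counts are not a result about the 43 genes.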
